A study of Mus musculus with 36 samples.

Results

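Immediate early genes are switched on within minutes of a stimulus and need no new protein synthesis. Signals that reach the cell through mitogen-activated protein kinases, calcium or stress pathways activate factors already present, such as the serum response factor and CREB, and these start transcription at once. The mRNAs are short-lived, and the products are mainly transcription factors that act on a later set of genes, together with phosphatases and RNA-binding proteins that end the response. In blood-forming marrow they are used by neutrophils, monocytes and macrophages during activation, and they also respond to the handling of a tissue.

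For this class 10 genes were chosen by name from the count table of a mouse marrow study. They were Fos, Fosb, Jun and Junb, which form the AP-1 transcription factor; Egr1, Nr4a1 and Atf3, which are transcription factors of other families; Dusp1 and Zfp36, which limit the response; and Ier2, a small nuclear protein. All 10 were among the 24597 named features of the table, and all 10 were among the 15575 genes that passed the filter on low counts.

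The study asked how loss of Nox4, an NADPH oxidase that makes hydrogen peroxide, affects bone, and it sequenced RNA of the marrow of femurs at 3 and 32 weeks of age. Control mice were Nox4 fl/fl, with both Nox4 alleles flanked by loxP sites. CKO mice were PrxCre + / Nox4 fl/fl and express Cre from a promoter active in the limb bud mesenchyme that forms the long bones. The third genotype, labelled Nox4 0/0 and written here as Nox4-/-, lacks Nox4 in the whole body. Females and males of each genotype and age were sampled, on a C57BL/6J background, and no group received a treatment. Pools of 2 to 4 mice killed with CO2 gave 1 library each, the marrow having been spun out of the bone into RNAlater. A pool averages its mice, so the error given below is the spread between pools.

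The series held 36 libraries, of which 35 fell into 12 groups of 2 or 3. The library labelled Nox4 0/1, a male of 3 weeks with replicate number 2, entered no comparison given here. Its title and the study's methods place it among the Nox4-/- males, against its genotype label. Adding it to them as an alternative changed no count of the 10 genes called. The 17 grouped libraries of 3 weeks held 32316236 to 163611881 counts (median 42770579), and the 18 of 32 weeks held 11193750 to 46569282 (median 16638559.5), so most libraries of 32 weeks were shallower. The depths overlapped through Nox4-/- female 32 weeks replicates 1 and 2, at 46569282 and 42297899 counts. The part of depth in the differences between the ages was not tested. Nox4 itself had 0 counts in all 11 Nox4-/- libraries, 0 to 3 in the 12 CKO libraries and 0 to 6 in the 12 control libraries, which is too few to check the CKO labels. Xist separated the sexes as labelled, with at least 8599 counts in every female library and at most 908 in the males; control male 32 weeks replicate 3 held that maximum, ahead of 110 in the second male library. CKO male 32 weeks replicate 2 stood apart for the genes described here, and results that rest on it are given with and without it. The labels named no sequencing batch. The column headers of the counts end in sample numbers that repeat between libraries, and their meaning is not given. They do not repeat within control and CKO of 3 weeks, within control and CKO of 32 weeks, or within Nox4-/- of both ages. If these sets were processed apart, age in control and CKO, and Nox4-/- against control, cannot be told apart from them. This was not tested.

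The promoters of the 4 genes on which the comparisons turn most are shown because they carry the letters through which immediate early factors are known to act. Sequences are those of RefSeq on GRCm38.p6, the release of mm10, around the start of the gene, read on its own strand, each of 300 bases. Capitals mark every match, on either strand, to the CArG box of the serum response factor, to TGACG, which is the short site of CREB and ATF factors, and the full site TGACGTCA that contains it, to GCGNGGGCG, the site of the EGR family, and to TATAAA. Fos lies at chr12:85473640-85473939 on the plus strand, Atf3 at chr1:191183284-191183583, Dusp1 at chr17:26508423-26508722 and Zfp36 at chr7:28379179-28379478, the last 3 on the minus strand.
Fos: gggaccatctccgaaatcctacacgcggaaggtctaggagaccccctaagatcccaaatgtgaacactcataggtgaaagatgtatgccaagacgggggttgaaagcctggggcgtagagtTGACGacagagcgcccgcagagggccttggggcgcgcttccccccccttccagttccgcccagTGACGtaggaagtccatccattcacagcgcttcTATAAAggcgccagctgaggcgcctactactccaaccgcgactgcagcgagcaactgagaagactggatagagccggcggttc
Atf3: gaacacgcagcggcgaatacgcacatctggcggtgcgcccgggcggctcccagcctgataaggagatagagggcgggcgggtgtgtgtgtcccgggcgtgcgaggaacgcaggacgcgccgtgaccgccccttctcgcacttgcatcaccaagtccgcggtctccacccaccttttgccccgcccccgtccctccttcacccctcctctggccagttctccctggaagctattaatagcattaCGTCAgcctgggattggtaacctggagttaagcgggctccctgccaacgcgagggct
Dusp1: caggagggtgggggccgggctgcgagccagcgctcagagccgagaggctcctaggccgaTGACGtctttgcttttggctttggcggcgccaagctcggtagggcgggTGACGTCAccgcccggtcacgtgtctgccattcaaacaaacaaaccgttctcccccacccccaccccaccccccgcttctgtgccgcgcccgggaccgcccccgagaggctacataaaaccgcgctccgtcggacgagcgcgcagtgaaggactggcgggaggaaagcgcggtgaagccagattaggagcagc
Zfp36: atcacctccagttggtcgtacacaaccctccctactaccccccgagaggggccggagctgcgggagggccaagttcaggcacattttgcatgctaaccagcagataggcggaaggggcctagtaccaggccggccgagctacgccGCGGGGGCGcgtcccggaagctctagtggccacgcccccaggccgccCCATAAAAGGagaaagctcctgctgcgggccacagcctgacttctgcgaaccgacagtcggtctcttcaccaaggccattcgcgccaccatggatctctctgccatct

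A promoter sequence was found for 8 of the 10 genes. TGACG stood in 6 of the 8 (Fos, Fosb, Junb, Atf3, Dusp1 and Nr4a1), and in 20.8% of all 32851 mouse promoters of the same length. Dusp1 alone held the full site TGACGTCA, found in 1.79% of all promoters, with its first base 143 bases before the start. GCGNGGGCG stood in Fosb, Nr4a1 and Zfp36 and in 5.55% of all promoters. The CArG box stood in Zfp36 alone, 58 bases before the start, and in 1.63% of all promoters. TATAAA was in the windows of Fos and Junb and in 13.6% of all, and the AP-1 site TGANTCA was in none of the 8 and in 7.81% of all. These are matches of letters in a short window; binding was not measured, and the longer promoter was not searched.

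Levels are given as CPM, the usual depth-scaled count, after TMM scaling of the library sizes. Levels of different genes are compared only as CPM per kilobase of exon. At 32 weeks the order of the medians was Ier2 (28.5), Zfp36 (21.6), Junb (18.1), Dusp1 (9.04), Jun (5.05), Nr4a1 (3.22), Fos (2.87), Atf3 (2.14), Egr1 (1.44) and Fosb (0.0494). Ier2 was above Zfp36, Junb above Dusp1, Dusp1 above Jun and Egr1 above Fosb in all 18 libraries. Zfp36 was above Junb in 17 and Fos above Atf3 in 16 of the 18. The orders of Jun and Nr4a1, of Nr4a1 and Fos, and of Atf3 and Egr1 held in 15, 13 and 15 libraries, so these neighbours overlapped. At 3 weeks Ier2 was again first, at a median of 19.4, while Dusp1 (13), Junb (12.6) and Zfp36 (12) could not be ordered, Dusp1 being above Junb in 7 and Junb above Zfp36 in 8 of 17 libraries. Fosb was last at both ages, with 1 to 34 counts in a library, so its values carry a large counting error.

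**Figure D1:**
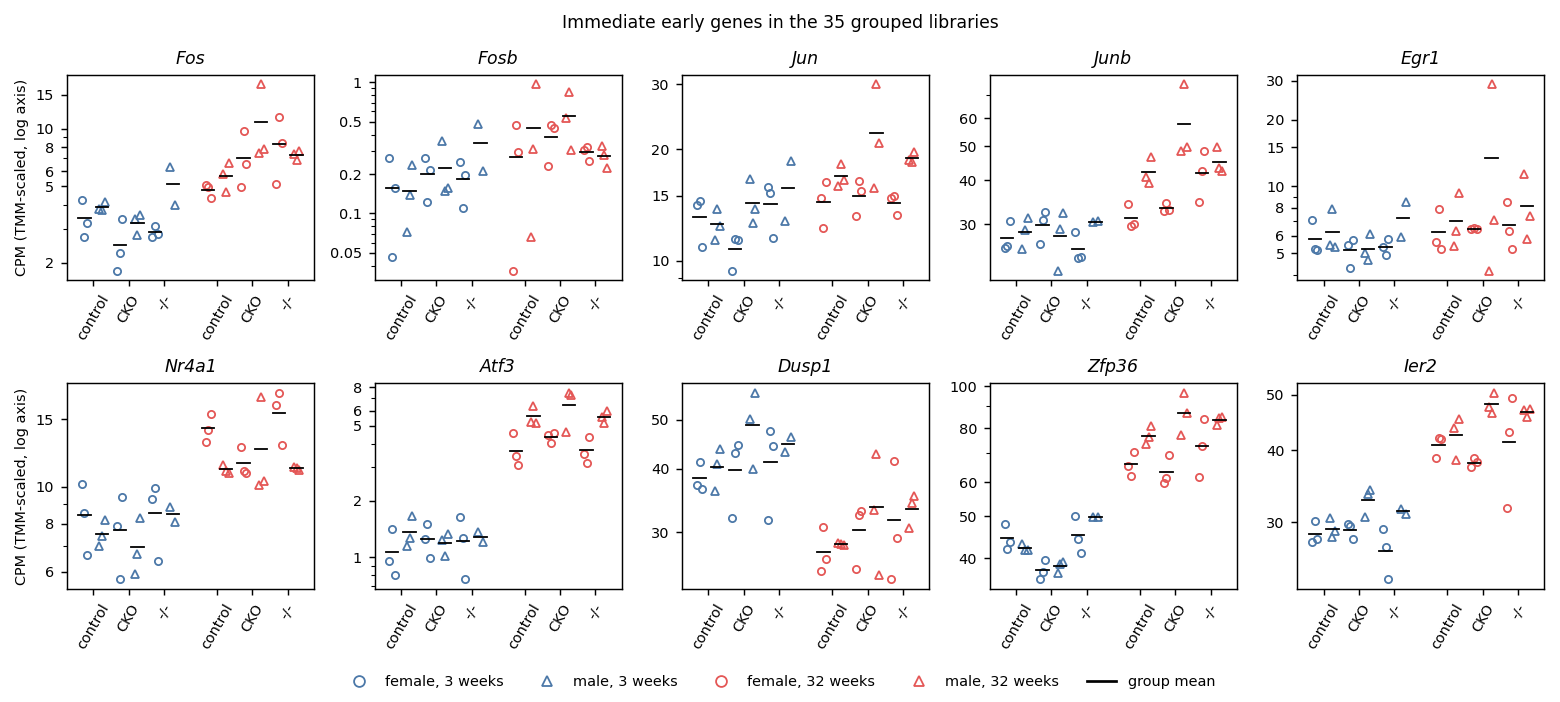
Level of each gene (CPM after TMM scaling, log axis) in the 35 grouped libraries, by genotype (control, CKO, -/- for Nox4-/-) and age. Each symbol is a library, circles are females and triangles males, and the black line is the group mean. Atf3 and Zfp36 were higher in all 18 libraries of 32 weeks than in any of the 17 of 3 weeks.

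The comparison of the ages was the one in which these genes differed most. From 3 to 32 weeks 9 of the 10 rose and Dusp1 fell, all at an adjusted p under 0.05 in edgeR's quasi-likelihood test with Benjamini-Hochberg adjustment over the 15575 genes tested. Age changed most of the transcriptome: 82.4% of all genes passed, 40.6% higher and 41.8% lower at 32 weeks, so that 10 genes called is near the background, while 9 rises to 1 fall is not the split of all genes. The median log2 fold change was 0.61 for the 10 genes and -0.02 for all genes tested. When scaled by library size alone, without TMM, the median of all genes was 0.11, and each of the 10 genes kept its direction and its call.

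Among the AP-1 genes, Fos, whose protein pairs with a Jun protein to bind DNA, had the largest difference. Its level ran from 1.82 CPM through a median of 3.38 to 6.30 in the 17 libraries of 3 weeks, and from 4.33 through 6.74 to 17.1 in the 18 of 32 weeks. The ranges overlapped, and the highest value belonged to CKO male 32 weeks replicate 2. The log2 fold change was 1.06 (SE, the standard error, 0.119, adjusted p = 1.46e-09), and 0.97 without that library. Fosb, a close relative of Fos, ran from 0.0463 through 0.197 to 0.483 CPM at 3 weeks and from 0.0367 through 0.308 to 0.974 at 32 weeks, a difference of 0.87 on the log2 scale (SE 0.275, adjusted p = 0.00483). Both the lowest and the highest of its values were at 32 weeks, and the fold change was 0.67 without control male 32 weeks replicate 3.

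Junb, the Jun relative with the highest level here, ran from 22.2 through 29.0 to 32.6 CPM at 3 weeks and from 29.7 through 41.7 to 75.1 at 32 weeks. The lowest libraries of 32 weeks lay within the range of 3 weeks, and the log2 fold change was 0.54 (SE 0.0585, adjusted p = 6.82e-10). Jun, the founding partner of Fos, moved least of the 4, from a median of 12.8 CPM (9.41 to 18.6) to 16.1 CPM (12.3 to 30.1), a difference of 0.33 on the log2 scale (SE 0.0703, adjusted p = 9.44e-05). Its ranges overlapped.

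Of the other transcription factors, Atf3, which is induced by stress and restrains inflammatory genes in myeloid cells, rose most. It had 0.763 to 1.66 CPM at 3 weeks (median 1.25) and 3.09 to 7.5 CPM at 32 weeks (median 4.61), with no overlap between the ages. The log2 fold change was 1.97 (SE 0.0961, adjusted p = 3.51e-18), and it stayed between 1.93 and 2.02 with each library left out in turn. Nr4a1, an orphan nuclear receptor needed by the patrolling type of monocyte, ran from 5.74 through 8.08 to 10.2 CPM at 3 weeks and from 10.1 through 11.3 to 17.6 at 32 weeks. The ranges overlapped by 1 library of each age, and its log2 fold change was 0.67 (SE 0.0773, adjusted p = 2.41e-09).

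Egr1, a zinc finger factor that responds to serum and to stretch, had the least certain difference of the 10. It ran from 4.31 through 5.42 to 8.48 CPM at 3 weeks and from 4.17 through 6.44 to 29.0 at 32 weeks, so the ranges overlapped, with 4 libraries of 32 weeks above the range of 3 weeks. The log2 fold change was 0.42 (SE 0.155, adjusted p = 0.0145). Without CKO male 32 weeks replicate 2, the library with 29.0 CPM, it was 0.20. The adjusted p of edgeR's quasi-likelihood test was then 0.0653, so the call depended on that library. The call depended on the processing too. With all libraries kept it was lost with limma on the deposited log2 values (0.26) and with length and GC trends removed (0.32).

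The genes that end the response went in opposite directions. Zfp36, also called tristetraprolin, binds AU-rich elements of cytokine mRNAs and speeds their decay; it ran from 35.7 through 41.8 to 50.1 CPM at 3 weeks and from 59.8 through 75.0 to 96.8 at 32 weeks. No library of 3 weeks reached the lowest of 32 weeks, and the log2 fold change was 0.80 (SE 0.0375, adjusted p = 1.37e-18). Zfp36 and Atf3 were the 2 of 10 genes without overlap between the ages, where 16.1% of all genes were higher without overlap. Dusp1, a nuclear phosphatase that inactivates mitogen-activated protein kinases, ran from 31.7 through 43.0 to 56.6 CPM at 3 weeks and from 24.2 through 29.9 to 42.8 at 32 weeks. It was the gene that fell, by 0.45 on the log2 scale (SE 0.0728, adjusted p = 1.23e-06), with overlapping ranges. Ier2, a nuclear protein tied to cell movement and the cell cycle, rose from a median of 29.6 CPM (23.9 to 34.1) to 43.4 CPM (31.7 to 50.4), a difference of 0.53 on the log2 scale (SE 0.0405, adjusted p = 2.02e-13), with 1 library of 32 weeks inside the range of 3 weeks.

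**Figure D2:**
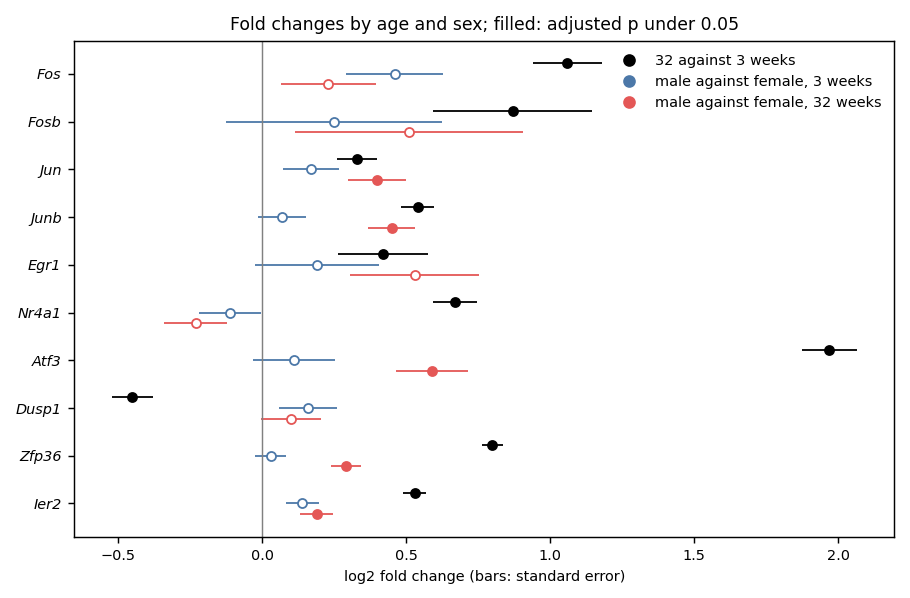
Log2 fold change of each gene between the ages (black) and between males and females at 3 weeks (blue) and at 32 weeks (red), with standard errors; filled points had an adjusted p under 0.05. All 10 genes were called for age, 0 for sex at 3 weeks and 5 for sex at 32 weeks.

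Within each genotype and sex the age difference had the same direction for most genes. Atf3, Zfp36 and Ier2 were called higher at 32 weeks in all 6 combinations, with log2 fold changes of 1.59 to 2.46, 0.57 to 1.18 and 0.39 to 0.62. Nr4a1 was called in 5 (0.40 to 0.88 over the 6), and Dusp1 had values of -0.53 to -0.38 and was called in 4. Fos was called in 3 of the 6, with values from 0.50 to 1.77: its fold changes were 0.50 and 0.54 in control females and males, 1.49 and 1.77 in CKO females and males, and 1.53 and 0.53 in Nox4-/- females and males. Egr1 was called in CKO males alone, at 1.41, and had 0.09 to 0.33 in the other 5; the difference between groups was not tested. Without CKO male 32 weeks replicate 2 the value in CKO males was 0.12, with an adjusted p of 0.748 by edgeR's quasi-likelihood test. Fosb was the gene whose sign varied, from -0.09 in Nox4-/- males to 1.70 in control males. In all, 5 of the 10 genes were called in control females (56.7% of all genes), 8 in control males (60%), 7 in CKO females (65%), 10 in CKO males (65.7%), 6 in Nox4-/- females (58%) and 4 in Nox4-/- males (56.2%). Without CKO male 32 weeks replicate 2, 7 of the 10 were called in CKO males (61.8% of all genes): Egr1, Jun (0.35) and Fosb (0.89) lost their calls, and Fos was at 1.25.

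**Figure D3:**
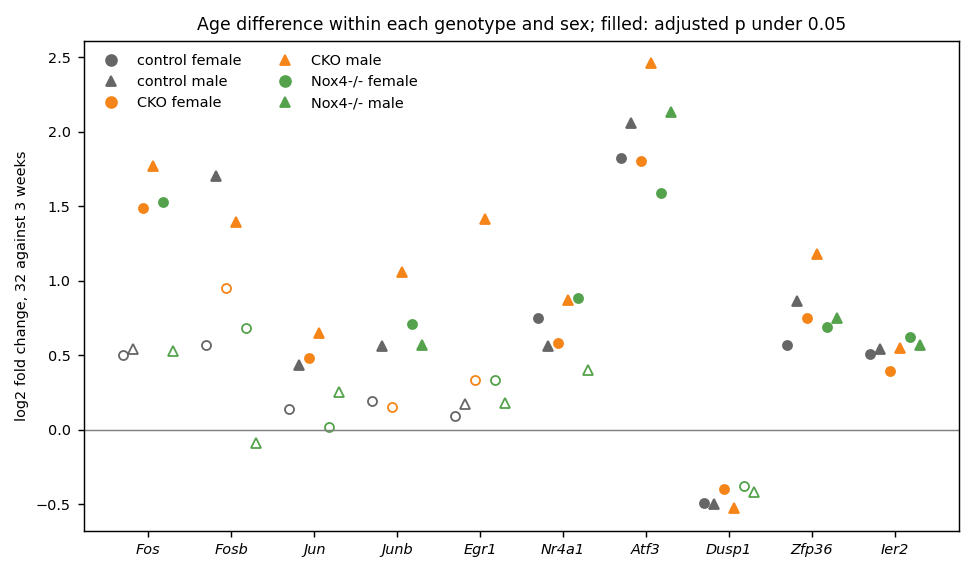
Log2 fold change from 3 to 32 weeks of each gene within each genotype (colour) and sex (circles females, triangles males); filled symbols had an adjusted p under 0.05. Atf3, Zfp36 and Ier2 were called in all 6 combinations; Egr1 was called in CKO males alone, at 1.41, and had 0.12 there without replicate 2 of 32 weeks.

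Of 44 further immediate early genes tested, 26 were higher at 32 weeks, 11 were lower and 7 were not called, with a median log2 fold change of 0.33. Il1b, the cytokine interleukin-1 beta, rose by 1.80 and Cebpd, a myeloid transcription factor, by 1.17, whereas Dusp2, a phosphatase of lymphocytes, and Pim1, a kinase, fell by 1.16 and 1.00 on the log2 scale. Of 21 kinases and factors upstream, 9 were higher and 10 lower, Mapkapk2, a kinase that phosphorylates the Zfp36 protein, being highest at 0.84 and Elk4, a partner of the serum response factor, lowest at -0.57. Of 14 genes of the integrated stress response, through which Atf4 can induce Atf3, 3 were higher and 10 lower, and Atf4 itself fell by 0.73. Of 15 heat shock genes, 3 were higher and 9 lower, from Hmox1 at 1.31 to Hsph1 at -0.98.

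Markers of marrow cells moved with age as well. All 12 neutrophil markers were higher at 32 weeks, at a median log2 fold change of 1.37, and their summed level was 10500 to 15500 CPM at 3 weeks and 22100 to 43200 at 32 weeks. All 12 monocyte and macrophage markers were also higher, at a median of 1.06, as were all 6 megakaryocyte markers (2.12), all 8 T and NK cell markers (1.47) and all 6 markers of neutrophil precursors (1.41), while all 11 erythroid markers tested (median -0.70) and all 10 B cell markers (median -1.17) were lower. All 6 skeletal muscle markers were lower at 32 weeks too (median -2.87), at a summed level of 16.6 to 97.1 CPM at 3 weeks and 5.99 to 15.3 at 32 weeks. In RNA of whole marrow, fewer cells of a type and less RNA per cell cannot be told apart, and the part of the cell composition in the changes of the 10 genes was not tested.

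Sex was compared within each age. At 3 weeks 0 of the 10 genes were called by edgeR's quasi-likelihood test, by DESeq2 or by limma, where 0.52% of all genes were called by edgeR; at an unadjusted p under 0.05 the count was 2, beside 13.2% of all genes. Without CKO male 32 weeks replicate 2 the adjusted test called 0 of the 10 and 0.815% of all genes. The largest difference was that of Fos, 0.46 higher in males on the log2 scale (SE 0.169, adjusted p = 0.216).

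At 32 weeks 5 of the 10 genes were higher in males than in females, and 0 were lower, where 10.5% of all genes were called and 6.44% were higher. Atf3 ran from 4.62 through 5.59 to 7.5 CPM in the 9 male libraries and from 3.09 through 4.04 to 4.6 in the 9 female ones. The sexes did not overlap, which held for 1 of the 10 genes in the higher direction and for 0.597% of all genes. The log2 fold change of Atf3 was 0.59 (SE 0.126, adjusted p = 0.00217). Junb ran from 39.3 through 46.5 to 75.1 CPM in males and from 29.7 through 34.3 to 48.5 in females, a difference of 0.45 on the log2 scale (SE 0.0821, adjusted p = 0.000452). Its highest female libraries were Nox4-/-.

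Jun had 15.7 to 30.1 CPM in males (median 18.5) and 12.3 to 16.4 in females (median 14.8), a difference of 0.40 on the log2 scale (SE 0.1, adjusted p = 0.00852). Zfp36 had 73.5 to 96.8 CPM in males (median 81.5) and 59.8 to 84.0 in females (median 65.5), a difference of 0.29 on the log2 scale (SE 0.0519, adjusted p = 0.000266). Ier2 had the smallest called difference, 0.19 (SE 0.0567, adjusted p = 0.0258), with 38.5 to 50.4 CPM in males and 31.7 to 49.3 in females. These 3 overlapped between the sexes, and the call of Ier2 was lost without CKO male 32 weeks replicate 3, control female 32 weeks replicate 1 or control male 32 weeks replicate 3, with adjusted p up to 0.0611 by edgeR's quasi-likelihood test.

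Nr4a1 went the other way. It had 10.1 to 17.1 CPM in males (median 11) and 10.8 to 17.6 in females (median 13.1), a difference of -0.23 on the log2 scale (SE 0.109, adjusted p = 0.182). The 17.1 CPM belonged to CKO male 32 weeks replicate 2, and the other male libraries had at most 11.4. Without that library the log2 fold change was -0.34 and the adjusted p of edgeR's quasi-likelihood test was 0.0298. The other called genes kept their calls without it, at 0.55 for Atf3, 0.36 for Junb, 0.30 for Jun, 0.27 for Zfp36 and 0.20 for Ier2, so 6 of the 10 genes were then called, beside 11.9% of all genes. Egr1, at 0.53 with all libraries (adjusted p = 0.13), had 0.10 without it, and 0.66 with an adjusted p of 0.0258 by edgeR's quasi-likelihood test without replicate 1 of the same group. Fos (0.23), Fosb (0.51) and Dusp1 (0.10) were not called; Fosb had 0.11 without control male 32 weeks replicate 3.

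Of the 12 neutrophil markers 10 were higher in males at 32 weeks, with Cxcr2 at 0.46, and their summed level was 28300 to 43200 CPM in males and 22100 to 39200 in females. Of the 44 further immediate early genes, 8 were higher and 0 lower, Il1b at 0.81 and Fosl2, a Fos relative, at 0.56. Adipocyte markers (4 of 6) and osteoblast and stromal markers (4 of 11) were lower in males. Of 15 heat shock genes 2 were higher and 0 lower, with a median of 0.24 and Hspa1b at 2.31 (adjusted p = 0.0132). The median was 0.04, and Hspa1b was at 1.10 (adjusted p = 0.125), without CKO male 32 weeks replicate 2. The part of these genes and cells in the sex difference of the 10 genes was not tested. A test of the difference between the ages called 1 gene, Zfp36, whose sex effect was larger at 32 than at 3 weeks by 0.26 (SE 0.0743, adjusted p = 0.0469), where 3.17% of all genes were called. That call was lost in 25 of 35 fits that each left out a library, with adjusted p up to 0.119 by edgeR's quasi-likelihood test, and without CKO male 32 weeks replicate 2 the value was 0.23, 0 of the 10 genes were called and 5.62% of all genes were.

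The CKO genotype was compared with control. The control label names no Cre, so loss of Nox4 in limb mesenchyme and the PrxCre construct cannot be told apart here. The paper attributes the higher Cyp2s1 of its CKO mice, its only strong genotype effect in marrow, likely to that construct. At 3 weeks, 1 of the 10 genes was called, where 25.9% of all genes were called and 11.6% were lower. Zfp36 had 35.73, 37.24 and 39.71 CPM in the 3 CKO females, 36.98, 38.88 and 39.28 in the 3 CKO males, 41.95, 43.65 and 48.07 in the 3 control females and 41.78, 41.80 and 43.18 in the 3 control males. Every CKO library was below every control library, as for 2.55% of all genes, and the log2 fold change was -0.19 (SE 0.0629, adjusted p = 0.0241). The adjusted p rose as far as 0.0886 when single libraries were left out, and the call was lost without CKO female 3 weeks replicate 1, CKO male 3 weeks replicate 1 or control female 3 weeks replicate 1. Library size in place of TMM kept the call of Zfp36, although it shifted the median of all genes from -0.02 to -0.11 and the share of calls that were higher from 55.1% to 22.3%. The other 9 genes had log2 fold changes of -0.35 (Fos) to 0.49 (Fosb). Of the 12 monocyte and macrophage markers, 5 were lower in CKO at this age, as were 6 of 11 osteoblast and stromal markers, 5 of 8 T and NK cell markers (median -0.47), 4 of 10 B cell markers (median -0.39) and 1 of 12 neutrophil markers. Of the 11 erythroid markers 3 were higher. Their part in the difference of Zfp36 was not tested.

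At 32 weeks 0 of the 10 genes were called in CKO against control by edgeR, DESeq2 or limma, where 0.00642% of all genes were called by edgeR, and 2 of the 10 had an unadjusted p under 0.05, beside 3.59% of all genes. Fos had 4.98, 9.68 and 6.53 CPM in CKO females, 7.46, 17.1 and 7.84 in CKO males, 5.06, 4.98 and 4.33 in control females and 5.79, 4.68 and 6.60 in control males. The CKO values were more spread than those of control, and the groups overlapped. Its log2 fold change was 0.76 (SE 0.207, adjusted p = 0.94), and 0.49 without CKO male 32 weeks replicate 2. Egr1 went from 0.52 to -0.12 when that library was left out, and Junb from 0.27 to 0.15.

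Fos was the gene whose CKO effect was called to change with age, by 1.11 (SE 0.289, adjusted p = 0.0302), from -0.35 at 3 weeks to 0.76 at 32 weeks, where 5.62% of all genes were called. Neither of the effects was called at its own age. The change was 0.85, with an adjusted p of 0.0532 by edgeR's quasi-likelihood test, without CKO male 32 weeks replicate 2, and the call was lost without any of 8 single libraries. Over both ages together 0 of the 10 genes were called (6.92% of all genes, and 0 of the 10 and 2.47% of all genes without CKO male 32 weeks replicate 2), with fold changes of -0.09 (Nr4a1) to 0.50 (Fosb) and 2 genes at an unadjusted p under 0.05, beside 25.6% of all genes; DESeq2 and limma also called 0.

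In Nox4-/- against control, 0 of the 10 genes were called over both ages (0.0193% of all genes), at 3 weeks (0.0449%), at 32 weeks (0%) or in the change of the effect with age (0%), by edgeR, DESeq2 or limma. The counts at an unadjusted p under 0.05 were 2, 0, 3 and 0, beside 4.02%, 5.34%, 6.2% and 7.74% of all genes. Fos had the largest difference at 32 weeks, with 5.12, 11.4 and 8.42 CPM in Nox4-/- females and 7.36, 6.88 and 7.66 in Nox4-/- males against the control values given above. All but 1 of the 6 Nox4-/- libraries were above the highest control library, at a difference of 0.57 on the log2 scale (SE 0.203, adjusted p = 0.681). At 3 weeks the 10 fold changes ran from -0.00 (Junb) to 0.67 (Fosb), and the Nox4-/- males were 2 libraries. CKO and Nox4-/- were compared with the same control libraries, so that the higher values of Fos in both at 32 weeks are not independent.

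The library labelled Nox4 0/1 held 405512 counts on named genes, with 3 counts equal to 7.4 CPM without TMM scaling. It had 20 counts of Zfp36, 14 of Dusp1, 11 of Ier2, 9 of Jun, 9 of Junb, 5 of Fos, 3 of Egr1, 1 of Nr4a1, and 0 of Fosb and Atf3. The 3 genes with at least 10 counts, Zfp36 at 49.3 CPM, Dusp1 at 34.5 and Ier2 at 27.1, lay within the ranges of the 3-week libraries. The other 7 were not read against those ranges, since under 10 counts do not resolve a level, and the 0 counts allow up to 7.4 CPM by counting error, above any other library of that age for both genes.

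The pooled standard deviation between replicate libraries, on the log2 CPM scale, had a median of 0.24 over the 10 genes and of 0.16 over all genes tested. The biological coefficient of variation estimated by edgeR had a median of 14.8% and 9.53%. For 7 of the 10 genes it was above the trend for genes of the same level, as for 33.6% of all genes. Egr1 exceeded the trend most, at 31.1% against 12.4%, followed by Fosb (39.4% against 21.0%), Fos (22.8% against 13.4%) and Dusp1 (14.6% against 8.65%). Zfp36 (7.55% against 8.10%), Ier2 (8.14% against 8.66%) and Atf3 (15.3% against 15.8%) were below it, and these 3 had the smallest adjusted p for age. Without CKO male 32 weeks replicate 2 the same 7 genes were above the trend (33.9% of all genes), the median standard deviation was 0.22 (0.15 over all genes), and Egr1 fell to 18.8% against 12.4%. Fosb (38.8% against 20.8%) and Dusp1 (13.6% against 8.46%) then exceeded the trend by a larger ratio than Egr1.

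CKO male 32 weeks replicate 2 set itself apart from its 2 partners. Egr1 had 4.17 CPM in replicate 1, 29.0 in replicate 2 and 7.08 in replicate 3. Fos had 7.46, 17.1 and 7.84, Nr4a1 10.1, 17.1 and 10.4, and Jun 15.7, 30.1 and 20.8. Replicate 2 was the highest for all 4 of these, with 306 counts of Fos and 519 of Egr1 behind the values.

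Junb had 48.4, 75.1 and 49.6 CPM, Zfp36 77.1, 96.8 and 87.0, Dusp1 33.2, 42.8 and 24.6, Fosb 0.533, 0.840 and 0.304, and Atf3 4.62, 7.5 and 7.30, in the same order. Ier2, at 47.6, 46.5 and 50.4 CPM, was lowest in replicate 2, whereas the other 9 genes were highest there, as were 35.9% of all genes. The mean deviation of the 10 genes from the other 2 libraries of the group was 0.77 on the log2 scale, with a median of 0.01 over all genes. Among the other 34 libraries the mean deviation ran up to 0.35 in control male 32 weeks replicate 3 and down to -0.47 in CKO male 32 weeks replicate 1, which is measured against replicate 2.

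**Figure D4:**
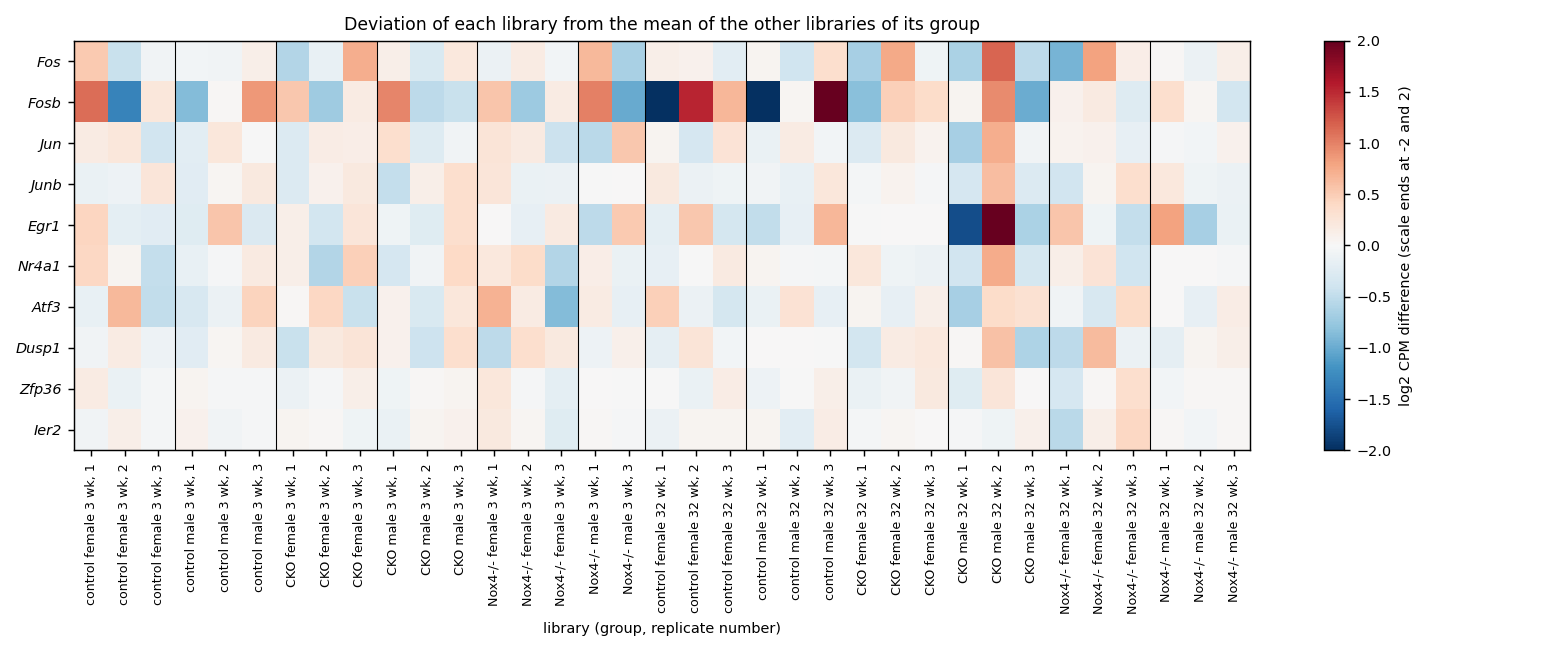
Difference of each library (columns) from the mean of the other libraries of its group, on the log2 CPM scale, for each gene (rows); colours end at -2 and 2, red is higher. CKO male 32 weeks replicate 2 was above its group for 9 genes, Egr1 among them, and the strong colours of Fosb rest on 1 to 18 counts a library at 32 weeks.

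Other stress-responsive genes were high in the same library. All 15 heat shock genes were highest of their group there, at a mean deviation of 1.69. Of the 44 further immediate early genes 33 were highest, the largest deviations being Egr3 at 2.25, Nr4a3 at 2.15 and Egr2 at 2.03, which are relatives of Egr1 and Nr4a1. These 3 had low levels, with means of 1.52, -0.15 and -0.13 on the log2 CPM scale. Among genes with a mean of at least 3 on that scale, Socs3, an inhibitor of cytokine signalling, deviated by 1.13 and the clock gene Per1 by 0.88. These 5 genes were chosen after their values were seen. The 12 hypoxia genes did not share this (mean deviation -0.03, 4 highest).

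Cell type markers differed there too. All 12 neutrophil markers, all 6 markers of their precursors and all 10 B cell markers were lowest of their group in it, at mean deviations of -0.48, -0.80 and -0.48. The 6 megakaryocyte (0.62), 6 plasma cell (0.34) and 6 endothelial markers (0.24) were all highest and so were 10 of the 11 erythroid markers (0.36). Shifts of markers were not particular to this library. All 12 neutrophil markers were lowest in Nox4-/- female 32 weeks replicate 1 (-0.81), and all 10 B cell markers in its replicate 3 (-0.89). The 17371720 counts of CKO male 32 weeks replicate 2 were the most of its group. The labels give no time from death to RNAlater, and the part of handling or of cell composition in this library was not tested.

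In the other 11 groups, the mean deviation of the heat shock genes and that of the 10 genes had the same sign in 14 of 32 libraries. Across those 32 libraries Pearson's r was -0.01 and Spearman's rho -0.04, given as a description, since libraries of a group are measured against each other. Both values had the same direction in some libraries. Control male 32 weeks replicate 3, with the next highest deviation of the 10 genes, had 0.24 in the heat shock genes, of which 12 of 15 were highest of their group there, and 0.35 in the 10 genes. Replicate 1 of that group had -0.28 and -0.30, and control male 3 weeks replicate 1 had -0.79 and -0.22. In others they differed, as in Nox4-/- male 3 weeks replicate 3, which had the next highest heat shock deviation, 0.72, and -0.08 in the 10 genes. In CKO male 32 weeks both values were low in replicates 1 (-1.01 and -0.47) and 3 (-0.69 and -0.31), each measured against a mean that includes replicate 2.

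**Figure D5:**
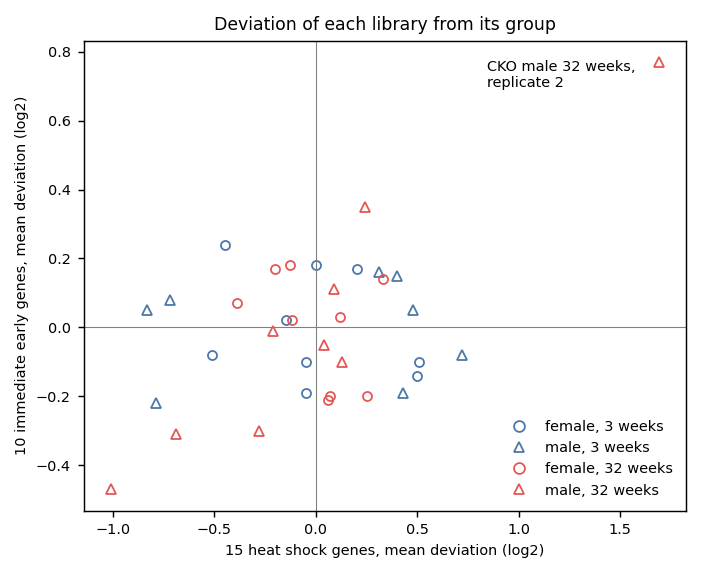
Mean deviation of the 15 heat shock genes (x axis, log2) against that of the 10 immediate early genes (y axis, log2), each library from the others of its group, for the 35 libraries by age (colour) and sex (symbol). CKO male 32 weeks replicate 2 lies at 1.69 and 0.77, and the other libraries lie at -1.01 to 0.72 and -0.47 to 0.35.

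The genes that varied most like the 10 within groups were named by the correlation of their residuals with the mean residual of the 10, over 35 libraries and 9483 genes of sufficient level. Errfi1, a feedback inhibitor of the EGF receptor, had the highest Pearson correlation at 0.73, then Ets2, an ETS transcription factor, at 0.72, Litaf at 0.71, Oas1b at 0.69, Irgm1 at 0.67, Isg15, Irf9 and Scamp3 at 0.64, Slc7a11 at 0.63 and Serpinh1 at 0.62. Depth and cell composition differ between the libraries and can move many genes at once; their part in these correlations was not tested. Without CKO male 32 weeks replicate 2, Litaf (0.55) was the gene of the 10 that stayed among the first 10 of the ranking, and Serpinh1 fell to 0.15. The correlation of Egr1 with the mean of the other 9 genes went from 0.60 to 0.22 without it, that of Junb from 0.53 to 0.22, that of Fos from 0.63 to 0.43 and that of Zfp36 from 0.53 to 0.41, whereas that of Ier2 went from 0.08 to 0.23.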

How the data were processed

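Marrow RNA was sequenced from stranded mRNA libraries on an Illumina NextSeq. Per the labels and the study's methods, the authors aligned reads with STAR 2.7.3a to mm10 after Bowtie2 2.2.5 had removed contaminants, and deposited raw counts per RefSeq gene. They also deposited TMM-normalised log2 CPM values, used here only in an alternative. Strand was kept by the kit, but the counting setting for it is not given in the sources used here. The 26 features named by a number (0.22% of counts) were left out.

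Counts were scaled by TMM and tested with edgeR 4.0.16 (R 4.3.3) by quasi-likelihood over 12 groups and 35 libraries, with Benjamini-Hochberg adjustment at 0.05. Log2 CPM used a prior count of 2. DESeq2 1.42.0, limma 3.58.1, other scalings and filters, a replicate block and leaving out each library were alternatives. Scripts were tested on simulated data. Limits for a count of 0 use 3 counts and cover counting error only. The labels do not say that pools were drawn separately beyond their numbers, so p-values measure the spread between these libraries.

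The 10 genes and all lists were chosen with earlier results of these data known. Genes outside the 10 were named by rank of fold change within lists, or of correlation, among genes with a mean log2 CPM of at least 3, except 5 named for their deviation in 1 library. For spread, correlations, heat shock genes and age within CKO males, leaving out CKO male 32 weeks replicate 2 or its group was chosen after seeing the data.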

Additional observations from a re-analysis of the deposited data

Results flagged for a closer look

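Among 100 sets of values, each a gene in the libraries of one sex or one genotype at one age, 10 held a library far from the others. The rule flags about 1 in 20 sets of independent values from a single distribution. These sets share libraries and mix groups, so that rate does not apply to this count. CKO male 32 weeks replicate 2 accounted for 5 of the 10. Among the males of 32 weeks it had 17.1 CPM of Fos (next 7.84), 30.1 of Jun (next 20.8), 75.1 of Junb (next 49.6) and 17.1 of Nr4a1 (next 11.4). Among the CKO libraries of 32 weeks it had 29.0 CPM of Egr1.

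The other 5 came from 5 libraries. Ier2 was lowest in Nox4-/- female 3 weeks replicate 3 among females of that age, at 23.9 CPM with the next at 27.2. It was also lowest in Nox4-/- female 32 weeks replicate 1 among Nox4-/- libraries of that age, at 31.7 CPM with the next at 43. Among the Nox4-/- libraries of 3 weeks Dusp1 was lowest in female replicate 1, at 31.7 CPM with the next at 43.1. Among the control libraries of 3 weeks Zfp36 was highest in female replicate 1, at 48.1 CPM with the next at 43.6. Among the females of 32 weeks Fosb was lowest in control replicate 1, at 0.0367 CPM from 1 count, with the next at 0.232.

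In 2 genes an effect was called to differ between the ages by its own test with all libraries. The CKO effect on Fos differed by 1.11 on the log2 scale, where 5.62% of all genes were called. The sex effect on Zfp36 differed by 0.26 on that scale, where 3.17% of all genes were called. Both calls were lost without CKO male 32 weeks replicate 2. The adjusted p of edgeR's quasi-likelihood test was then 0.0532 for Fos and 0.0538 for Zfp36. Of the alternatives in processing, Fos kept its call in all 9 and Zfp36 in 5 of 8.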

How the results depend on the processing

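Of 27 named fold changes, 19 kept their sign and their side of the threshold in all alternatives. The count of the 10 genes called for a sex effect that differed by age, 1 by edgeR, was 2 with DESeq2 and with length and GC trends removed, and 0 with limma, with library size only and with no filter. With single libraries left out it was 0 to 2. The count for the CKO effect by age, 1, was 2 with library size only and 0 to 2 with libraries left out, and that for CKO at 3 weeks, 1, was 0 to 1. Egr1 in CKO at 32 weeks ran from -0.12 to 0.72. The causes were not tested.

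Over all genes, CKO by age called 876, but 434 with length and GC trends removed, 455 with the compared libraries only and 1425 with DESeq2. CKO over both ages called 1078, but 1666 with DESeq2 and 422 with the compared libraries only. CKO at 3 weeks called 4033, but 2072 with the compared libraries only, and sex at 3 weeks called 81, but 24 to 196. With library size only, the share of calls that were higher went from 64.5% to 16.6% for CKO over both ages and from 47.5% to 82.6% for CKO by age.

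A replicate block changed no count of the 10 genes: age kept 10, sex at 32 weeks 5, sex by age 1, CKO at 3 weeks 1, CKO by age 1 and the rest 0. Over 187 pairs of same-numbered libraries, the correlation of their deviations was -0.19 to 0.38, with a median of 0.01 and 16 pairs over 0.1. A median over all groups cannot show whether libraries of some groups were paired, so pairing was not settled. Requiring 10 counts in every library drops Fosb. Depth limits Fosb most.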
